A study of Mus musculus with 24 samples.

Results

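Intracisternal A-particle (IAP) elements are endogenous retroviruses of the ERVK group that are still mobile in the mouse. In the deposited tables they were taken as the repeat loci whose family name starts with IAP, which gave 28733 loci of 25 families, out of 5147736 repeat loci of 1562 families. The choice was made by name and used no measured value. Of the 25 families, 10 hold internal sequence, the part between the ends of a provirus, and 15 hold long terminal repeats (LTRs), the ends that carry promoter and polyadenylation signals and often stand alone in the genome. All 25 belong to ERVK.

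A complete IAP provirus encodes Gag and Pol and makes virus-like particles that stay inside the cell. IAPE elements differ in that they also carry an envelope gene. In ESCs IAP elements are known as a main target of silencing. KRAB zinc finger proteins recognise the sequence and bring in KAP1 (Trim28) and the H3K9 methyltransferase SETDB1, and DNA methylation keeps many copies silent in differentiated cells. PRC2, the complex of EED, EZH2 and SUZ12, places the repressive mark H3K27me3. Many IAP insertions differ between mouse strains.

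Naive ESCs were compared in 6 experiments with 12 groups of 2 libraries each, 24 in all. In the first, E14 naive ESCs in 2i/LIF were sorted on TMRM, a dye taken up according to the mitochondrial membrane potential (ΔΨm), into the 5% with the highest and the 5% with the lowest signal, and the low-ΔΨm cells are the spontaneously quiescent ESCs (qESCs) of the study. Low-ΔΨm cells were also treated with 25 or 50 µM of the methyl donor S-adenosylmethionine (SAM). Mat2a siRNA against control siRNA targeted the enzyme that makes SAM. Quiescence was induced with etomoxir, an inhibitor of fatty acid oxidation (FAOi, against water), or with a MYC inhibitor (MYCi, against DMSO). Naive ESC lines that were Eed fl/- (called heterozygous) or Eed-/- (called null) had been derived from separate blastocysts of a cross with Protamine-Cre, which acts in the male germ line, so that genotype and line cannot be told apart. Replicates are described as independent. Which cultures they came from was not given, so a p-value covers only how far the libraries of a group lay apart.

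Values are FPKM of single loci, that is fragment numbers scaled by the length of the feature and the depth of the library. Fragments over genes numbered 27.2 to 64.2 M per library by an estimate from the steps between low values, and IAP loci took 0.0702% to 0.347% of the FPKM of all repeat loci. A fragment that mapped to several places had been divided among them. The value of a locus is therefore a share of fragments common to near-identical copies, and strand was not used, so that fragments of a longer transcript running through a locus count as its own. Each table was normalized by itself and levels were compared only within a table. Positions and sequences of the loci were not analysed here. The 8 pluripotency markers were above 0 in every library. Their sum was lower with Mat2a siRNA (553 and 342 against 988 and 928 FPKM), with etomoxir (327 and 305 against 826 and 1163 FPKM) and with MYCi (371 and 433 against 978 and 869 FPKM). Genes as a whole also lay lower there, with a median log2 fold change of -0.63, -0.66 and -0.65 in the same order. In low-ΔΨm cells the sum was higher (839 and 757 against 632 and 745 FPKM). The part of these markers in the IAP values was not tested. The 8 fibroblast markers summed to 7.34 and 8.70 FPKM in the Eed heterozygous and 3.98 and 4.77 FPKM in the Eed null libraries, which were derived on feeder cells, with none of the 8 at 0, and to between 0.236 and 2.01 FPKM in the other libraries. Mat2a (ENSMUSG00000053907, chromosome 6, 72432799 to 72439558, GRCm38) was at 48.5 and 45.1 FPKM with control siRNA and at 13.5 and 9.44 FPKM with Mat2a siRNA. Eed (ENSMUSG00000030619, chromosome 7, 89954654 to 89980983) was at 11.4 and 11.6 FPKM in heterozygous and at 2.72 and 2.78 FPKM in null cells.

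The summed FPKM of all IAP loci was lower in low-ΔΨm than in high-ΔΨm cells and higher in the treated group of 4 other comparisons. The sum was 701 and 735 in high-ΔΨm cells and 604 and 563 in low-ΔΨm cells. With control siRNA it was 1846 and 1888, and with Mat2a siRNA 2203 and 2054. Water gave 2705 and 2918 and etomoxir 3587 and 3733. In these 3 tables the groups did not overlap. DMSO gave 2579 and 2521 and MYCi 3002 and 3137, also without overlap. Eed heterozygous cells had 2772 and 2779 and null cells 4705 and 5484, a 1.84-fold difference of the means. At 25 µM SAM the sum was 2315 and 2227 and at 50 µM 2282 and 2121, with overlapping groups. With 2 libraries against 2, an exact two-sided permutation test cannot go below p = 0.333, so that no test was run on the sums. In bulk RNA, fewer expressing cells and less RNA per cell cannot be told apart.

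**Figure D1:**
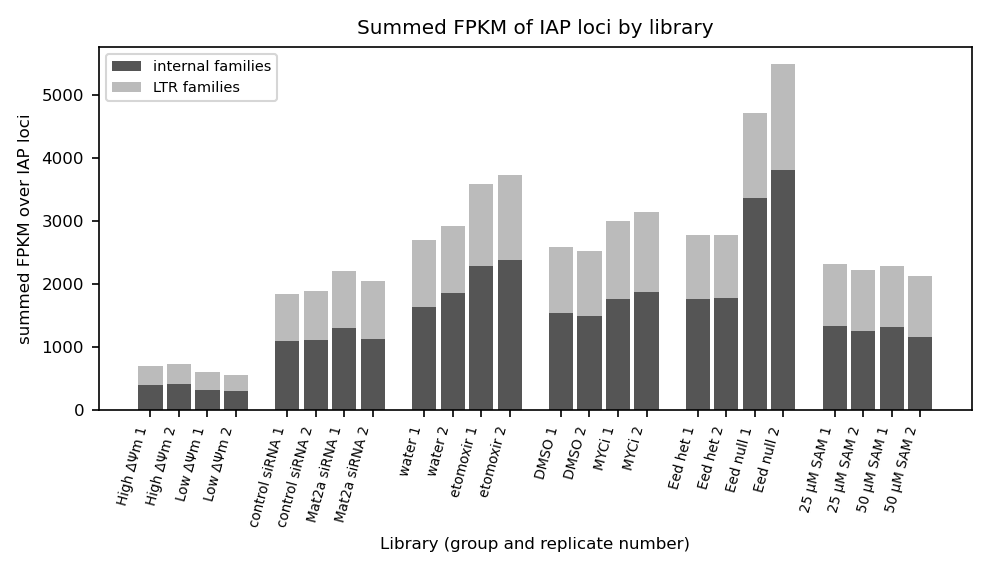
Summed FPKM over the 28733 IAP loci in each of the 24 libraries, as bars from 0, with internal families in dark and LTR families in light grey and a gap between tables, which were normalized separately. The Eed null libraries reach 4705 and 5484 against 2772 and 2779 in heterozygous libraries, and the low-ΔΨm libraries lie below the high-ΔΨm libraries.

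IAPEz-int, the most numerous internal family with 7319 loci, held 33.0% to 53.7% of the IAP total in every library. In the Eed table IAPEz-int made up 58.9% of the rise in the sum, IAPLTR1_Mm 12.2% and IAPEy-int 10.1%. In the sorted cells IAPEz-int made up 39.4% of the fall, IAPLTR1_Mm 17.4% and IAPEy-int 16.7%, although IAPEy-int held only 3.74% and 3.79% of the IAP total in high-ΔΨm cells. Its share of that total was 0.737% and 0.822% in low-ΔΨm cells. In the Eed table it was 0.770% and 0.825% in heterozygous and 5.10% and 5.0% in null cells.

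For tests, each family was given the mean FPKM over all its loci, and limma was fitted on log2 of that mean plus 0.01 over all repeat families of a table. Log2 fold changes below are on this scale, which understates the change of families near 0.01, and fold values are ratios of the mean FPKM. Families are called at a Benjamini-Hochberg adjusted p under 0.05 over all families tested.

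In low-ΔΨm qESCs, IAPEy-int, an internal IAPE family of 755 loci, was the only one of 18 tested IAP families that was called. Its mean was 0.0348 and 0.0369 FPKM in high-ΔΨm cells and 0.00590 and 0.00613 FPKM in low-ΔΨm cells. The libraries of each group lay close together and far from those of the other, a 5.96-fold lower mean with a log2 fold change of -1.52 (SE 0.07, limma adjusted p = 0.0181). This was the fifth largest decrease among 1386 families (rank 5). IAPEy-int passed the level filter only through the high-ΔΨm libraries. With no filter its limma adjusted p was 0.0299. Among all families tested, 0.361% were called higher and 0.216% lower, and 0 IAP families were called higher. Before adjustment, 1 of the 18 had p under 0.05 upwards and 6 downwards. Leaving out any 1 of the 4 libraries kept the log2 fold change of IAPEy-int between -1.55 and -1.48, and its limma adjusted p was then 0.124 to 0.292.

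Of the other internal families, IAPA_MM-int, with 126 loci, had 0.0603 and 0.0633 FPKM in high-ΔΨm cells and 0.0371 and 0.0321 FPKM in low-ΔΨm cells, with a log2 fold change of -0.69 that was not called (limma adjusted p = 0.0889). IAP-d-int had -0.51, IAPEY4_I-int -0.35 and IAPEz-int -0.26, none of them called, and in each both low-ΔΨm libraries lay below both high-ΔΨm libraries. IAP1-MM_I-int had -0.01, and 0.03 when scaled to the ERCC spike-in RNA. The LTR families were closer to 0, with a median log2 fold change of -0.02 over 12 families against -0.43 over the 6 internal families tested. IAPEY_LTR had 0.0239 and 0.0255 FPKM in high-ΔΨm and 0.0133 and 0.0135 FPKM in low-ΔΨm cells, a log2 fold change of -0.57 (limma adjusted p = 0.0889). IAPLTR1_Mm had -0.29, IAPLTR2_Mm -0.05, IAPLTR1a_Mm 0.06 and IAPLTR2b 0.07. IAPLTR2a had 0.19, and -0.04 without its highest locus. The median was -0.06 over the IAP families and -0.01 over all families. IAPEY3-int, IAPEY3C_LTR, IAPEY5_I-int, IAPEY5_LTR, IAPLTR3, IAPLTR3-int and IAPLTR4_I were below the filter.

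The direction of IAPEy-int was opposite to that of MERVL-int, the internal sequence of the ERVL retrovirus expressed at the 2-cell stage. MERVL-int rose in low-ΔΨm cells from 0.0420 and 0.0432 to 0.459 and 0.410 FPKM, a log2 fold change of 3.07 (limma adjusted p = 0.0095). Of the other ERVK families, 1 of 237 was called higher and 1 lower. MMERVK10C-int, an ERVK family outside IAP, had a log2 fold change of 0.24, RLTR10 0.00 and ETnERV-int -0.07, and none of these 3 was called.

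**Figure D2:**
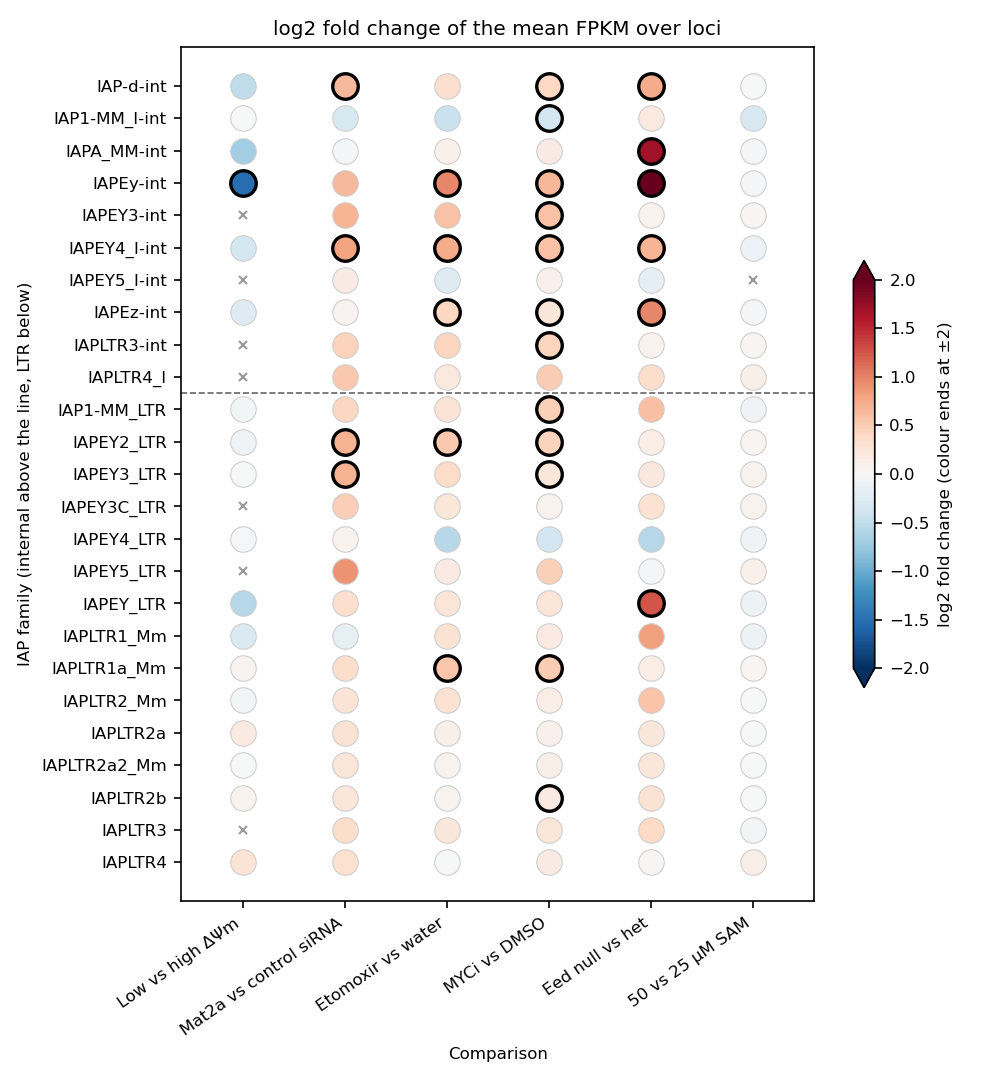
Log2 fold change of each of the 25 IAP families (vertical axis, internal families above the dashed line) in the 6 comparisons (horizontal axis), by colour from blue (lower) to red (higher), with a black ring where the limma adjusted p was under 0.05 and a cross where a family was below the filter. IAPEy-int has the only ring for low against high ΔΨm (-1.52) and the deepest red for Eed null against heterozygous (3.15), and 50 against 25 µM SAM has no ring.

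In Eed null cells IAPEy-int changed the other way, and more than any other of the 1451 families tested (rank 1 of the increases). It had 0.0283 and 0.0304 FPKM in heterozygous cells and 0.318 and 0.363 FPKM in null cells, which is 11.6-fold higher, with a log2 fold change of 3.15 (SE 0.09, limma adjusted p = 0.00818). In all 6 of 25 IAP families were called higher and 0 lower (1 lower at an unadjusted p under 0.05), against 4.55% higher and 2.62% lower among all families. After median-of-ratios scaling, which divides each library by the median ratio of its genes to the other libraries, 6 IAP families were higher and 1 lower, against 3.38% and 2.69%.

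The other 5 families called in Eed null cells were 4 internal families and 1 LTR family. IAPA_MM-int went from 0.182 and 0.171 to 0.533 and 0.660 FPKM, 3.38-fold, with a log2 fold change of 1.69 (limma adjusted p = 0.0299). IAPEz-int went from 0.183 and 0.183 to 0.345 and 0.394 FPKM, 2.02-fold, with a log2 fold change of 0.97 (limma adjusted p = 0.0299). IAPEY_LTR went from 0.0347 and 0.0369 to 0.0847 and 0.116 FPKM, 2.80-fold (limma adjusted p = 0.0412). In each of the 3 the null libraries lay apart from one another by more than the heterozygous libraries did, and above both of them. IAP-d-int, with 1323 loci, was 1.87-fold higher (log2 fold change 0.74, limma adjusted p = 0.0386) and IAPEY4_I-int, with 521 loci, 1.62-fold higher (0.68, limma adjusted p = 0.0299). After scaling, IAPEY4_I-int was not called (limma adjusted p = 0.0529), IAPLTR1_Mm was (0.0266 after scaling, 0.0727 before), and IAPEY4_LTR was called lower, with -0.57 before scaling and -0.68 after. Without its highest locus IAP-d-int had a limma adjusted p of 0.0567 and IAPEY_LTR of 0.0683. When any 1 of the 4 libraries was left out, 0 IAP families were called, and IAPEy-int then had log2 fold changes of 3.06 to 3.25 with limma adjusted p-values of 0.0593 to 0.0950.

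Other LTR families differed less between Eed null and heterozygous cells. IAPLTR2_Mm had a log2 fold change of 0.57, IAPEY3C_LTR 0.30, IAPLTR2b 0.29, IAPLTR2a 0.23 and IAPLTR1a_Mm 0.15, none of them called. IAP1-MM_I-int had 0.19. The median was 0.52 over internal and 0.24 over LTR families of IAP, 0.04 over 251 other ERVK families and 0.06 over all families. Of the other ERVK families 22 were called higher and 13 lower. MMERVK10C-int was among them with 0.60 (limma adjusted p = 0.0299), and MERVL-int had 1.77 (limma adjusted p = 0.0174). The fibroblast markers given above were lower in null than in heterozygous libraries, and their part in these differences was not tested.

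**Figure D3:**
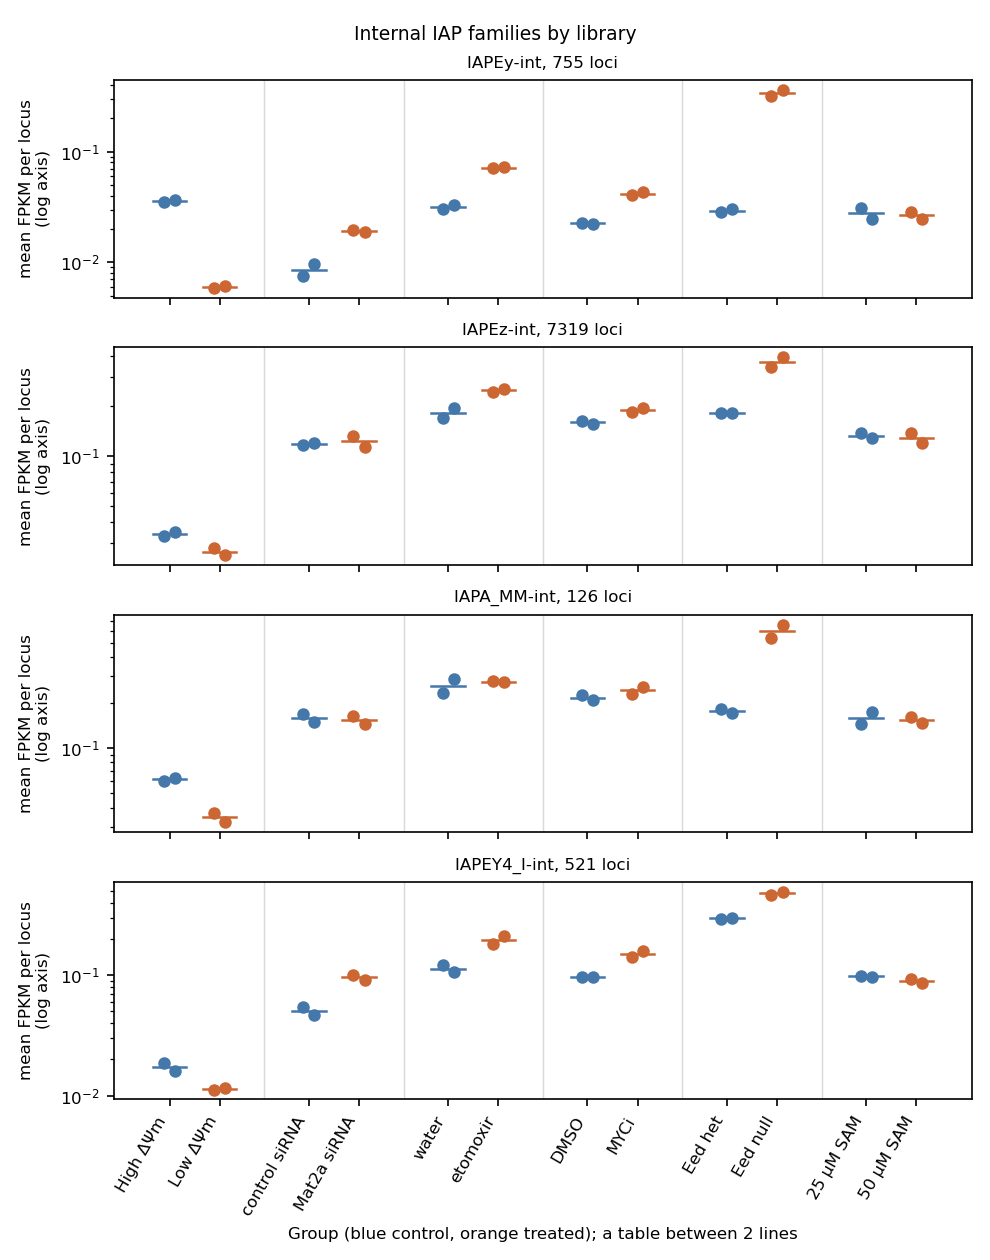
Mean FPKM per locus (log axis) of 4 internal IAP families in each library, with the control group of a table in blue, the treated group in orange, 1 point per library and the group mean as a line, and grey lines between tables. IAPEy-int goes from 0.0348 and 0.0369 down to 0.00590 and 0.00613 in low-ΔΨm cells and from 0.0283 and 0.0304 up to 0.318 and 0.363 in Eed null cells.

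The inhibitors that induce quiescence gave higher IAPEy-int, not lower. In the FAOi table it had 0.0305 and 0.0330 FPKM with water and 0.0708 and 0.0729 FPKM with etomoxir, 2.26-fold higher, with a log2 fold change of 0.97 (SE 0.11, limma adjusted p = 0.0227). In all 5 of 25 IAP families were called higher and 0 lower (2 lower at an unadjusted p under 0.05), against 7.38% and 10% of all families. The others were IAPEY4_I-int with a log2 fold change of 0.74 (limma adjusted p = 0.0291), IAPLTR1a_Mm with 0.56 (0.0297), IAPEY2_LTR with 0.54 (0.0347) and IAPEz-int with 0.43 (0.0457). IAPEz-int had 0.170 and 0.196 FPKM with water and 0.245 and 0.252 FPKM with etomoxir. Of the families not called, IAP-d-int had 0.34, IAPLTR1_Mm 0.29, IAPLTR2_Mm 0.30, IAPEY_LTR 0.26 and IAPA_MM-int 0.10. IAP1-MM_I-int had -0.44, and 0.32 after scaling. Genes as a whole lay lower with etomoxir, and scaling moved the median gene by 0.72. After it, 22 IAP families were higher and 0 lower, against 80.3% higher among all families. Centred on the median family instead, 0 were called. On the deposited scale the IAP calls did not hold without etomoxir replicate 1 or 2, and they changed without water replicate 1. The shares of all families called in those fits are not given here.

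With MYCi, IAPEy-int had 0.0228 and 0.0223 FPKM in DMSO and 0.0405 and 0.0428 FPKM in MYCi libraries, 1.84-fold higher, with a log2 fold change of 0.66 (SE 0.06, limma adjusted p = 0.0189). It was one of 11 IAP families called higher, and 1 was called lower, against 31.6% and 14% of all families. IAPEY4_I-int and IAPEY3-int, an internal family of 2345 loci, both had a log2 fold change of 0.59. IAPLTR1a_Mm had 0.51, IAP1-MM_LTR 0.48, IAPEY2_LTR 0.46, IAPLTR3-int 0.45, IAP-d-int 0.41, IAPEY3_LTR 0.25, IAPEz-int 0.24 and IAPLTR2b 0.18. IAP1-MM_I-int was the family called lower, from 0.284 and 0.260 to 0.202 and 0.219 FPKM (log2 fold change -0.35, limma adjusted p = 0.0322), but it had 0.39 after scaling and 0.01 without its highest locus, which held 34.4% of the family. IAPA_MM-int had 0.16 and was not called. Scaling moved the median gene by 0.68, and then 24 IAP families were higher and 0 lower, against 88% higher among all families. Centred on the median family, 7 IAP families were higher and 1 lower, against 149 higher and 253 lower of all 1444 families. When any 1 of the 4 libraries was left out, 0 were called.

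With Mat2a siRNA, 4 of 25 IAP families were called higher and 0 lower (0 lower at an unadjusted p under 0.05), against 8.9% and 2.21% of all families. IAPEY4_I-int had 0.0543 and 0.0464 FPKM with control siRNA and 0.0999 and 0.0912 FPKM with Mat2a siRNA, a log2 fold change of 0.81 (limma adjusted p = 0.0441). IAPEY2_LTR had 0.70 (limma adjusted p = 0.0464), IAPEY3_LTR 0.69 (0.0466) and IAP-d-int 0.65 (0.0450). IAPEy-int had 0.00753 and 0.00966 FPKM with control siRNA and 0.0194 and 0.0190 FPKM with Mat2a siRNA, 2.23-fold apart, with a log2 fold change of 0.65 that was not called (limma adjusted p = 0.0826), and it passed the level filter only through the Mat2a siRNA libraries. IAPEz-int, at 0.116 and 0.120 against 0.132 and 0.114 FPKM, overlapped between the groups. IAPLTR1_Mm had -0.18 and IAPA_MM-int -0.04, and both were above 0 after scaling (0.53 and 0.67). Scaling moved the median gene by 0.65, and then 17 IAP families were higher and 0 lower, against 64.3% higher among all families. Centred on the median family, or when any 1 of the 4 libraries was left out, 0 were called.

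The SAM comparison gave no call. 0 of 24 IAP families were called in either direction by limma, also at an unadjusted p under 0.05, and 0% of all families were called higher or lower. IAPEy-int had 0.0307 and 0.0249 FPKM at 25 µM and 0.0286 and 0.0248 FPKM at 50 µM, a log2 fold change of -0.04 (SE 0.14), or 0.28 after scaling. IAPEz-int had 0.137 and 0.128 against 0.137 and 0.120 FPKM, a log2 fold change of -0.04 (SE 0.09), or 0.36 after scaling. The groups overlapped in both families. This table has no group of low-ΔΨm cells without SAM.

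The difference between the effect of low ΔΨm and each other effect was tested as a contrast in one fit of both tables, which share no library. Against Mat2a siRNA the low-ΔΨm effect lay below in 7 of 18 IAP families and above in 0, while 7.15% of all families differed in either direction. Against FAOi 9 IAP families lay below (12.1% of all families differed), against MYCi 10 (26.6%) and against Eed null 7 (5.99%). None of the 18 was called above in any of these 4 contrasts. All 4 use the same libraries of sorted cells and are not independent of one another. The shares of all families are not split by direction, so that they give no background for the direction of the IAP families. IAPEy-int had the largest difference of the IAP families in each contrast. It was -2.17 (limma adjusted p = 0.00455) against Mat2a siRNA, -2.49 (0.000192) against FAOi, -2.18 (0.000276) against MYCi and -4.67 (3e-05) against Eed null. IAPEy-int passed the level filter only through high-ΔΨm libraries in the sorted cells and only through Mat2a siRNA libraries in that comparison. The filter thus favoured a negative difference for it in all 4 contrasts, and against Mat2a siRNA through both tables. IAP-d-int, IAPA_MM-int, IAPEY4_I-int and IAPEY_LTR also differed in all 4 contrasts.

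Single IAP loci were mostly at or near 0. In the sorted cells 8417 to 9994 of the 28733 loci were above 0 in a library, and 151 to 236 reached 0.5 FPKM. Among the Eed lines 1188 and 1179 reached 0.5 FPKM in heterozygous and 2234 and 2552 in null libraries. By limma on log2(FPKM + 0.1), 0 IAP loci were called in any of the 6 tables after adjustment over all loci tested, with smallest adjusted p-values of 0.203 in the sorted cells, 0.108 with Mat2a siRNA, 0.0853 with FAOi, 0.123 with MYCi, 0.0951 in the Eed lines and 0.931 with SAM.

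At an unadjusted p under 0.05 the counts of loci were as follows. In the sorted cells 227 loci passed the filter of 0.5 FPKM in 2 libraries, 87 of them only through high-ΔΨm and 27 only through low-ΔΨm libraries. 9 were higher and 53 lower, against 5.45% and 5.5% of all repeat loci tested, so that most IAP loci below the threshold lay on the lower side. Among the Eed lines 2278 passed, of which 1177 passed only through the null libraries. 1164 were higher and 72 lower, against 11% and 9.07%, so that most lay on the higher side. With FAOi 1541 passed, 507 of them only through etomoxir. 159 were higher and 26 lower, against 12.2% and 8.1%. With MYCi 1285 passed, 297 of them only through MYCi. 110 were higher and 24 lower, against 10.2% and 6.82%. With Mat2a siRNA 872 passed, 251 of them only through control and 225 only through Mat2a siRNA. 142 were higher and 75 lower, against 10.9% and 7.22%. With SAM 951 passed, and 1 was higher and 2 lower, against 2.7% and 1.89%. A locus that passed only through its higher group had to differ, so that these counts describe the loci and give no further support to the family tests.

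The change of IAPEy-int did not rest on its highest locus alone. The 10 highest loci held 46.3% of the family in sorted cells and 36.2% of it in the Eed lines, and without its highest locus the family still had log2 fold changes of -1.45 and 3.08. Among the Eed lines 503 of the 755 loci were above 0 in at least 1 library. Both null libraries lay above both heterozygous libraries in 261 and below both in 13. The share of all repeat loci with such an order was not counted, and loci share divided fragments, so that these counts only describe the family. IAPEy-int loci of at least 0.5 FPKM numbered 7 and 7 in heterozygous and 86 and 92 in null libraries, 9 and 12 in high-ΔΨm and 2 and 2 in low-ΔΨm libraries, and 8 and 8 with water and 27 and 28 with etomoxir.

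In the sorted cells 9 IAPEy-int loci passed the filter, 7 of them only through high-ΔΨm libraries, and they are followed here by their HOMER number. Locus 4445391 had 3.29 and 2.93 FPKM in high-ΔΨm and 0.545 and 0.622 FPKM in low-ΔΨm cells. It had 1.26 and 1.71 FPKM in Eed heterozygous and 8.70 and 9.0 FPKM in null cells. Neighbouring number 4445390 was alike, with 2.45 and 2.60 against 0.519 and 0.614 FPKM by ΔΨm and 1.53 and 1.72 against 11.1 and 11.8 FPKM by Eed genotype. These were the 2 loci above 0.5 FPKM in every library of the sorted cells.

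Of the 9, loci 36052 and 36053 had the highest values in Eed null cells. Locus 36052 had 0.849 and 1.06 FPKM in high-ΔΨm, 0.165 and 0.158 FPKM in low-ΔΨm, 0.546 and 0.592 FPKM in Eed heterozygous and 16.5 and 18.2 FPKM in null cells. Locus 36053 had 1.44 and 1.97, 0.215 and 0.183, 0.447 and 0.309, and 13.3 and 14.8 FPKM in the same order. With etomoxir 36052 had 1.99 and 2.29 FPKM against 0.712 and 0.779 FPKM with water, and with MYCi 1.04 and 1.24 FPKM against 0.666 and 0.50 FPKM in DMSO. Both were lower in every low-ΔΨm library than in any high-ΔΨm library and higher in every null library than in any heterozygous library. Loci 1264017, 2800524, 2800525 and 2836501 had the same order of groups in both tables.

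The exception was locus 1857212. It had 0.774 and 0.775 FPKM in high-ΔΨm and 0.0489 and 0.0725 FPKM in low-ΔΨm cells, and 0.0435 and 0.0158 FPKM in Eed heterozygous against 0.0397 and 0.0226 FPKM in null cells, where the groups overlapped and the locus was below the filter. At an unadjusted p under 0.05, all 9 were lower in low-ΔΨm cells, and 8 of them (88.9%) were among the 81 IAPEy-int loci higher in Eed null cells, or 9.88% of those 81. Of IAPEz-int, 23 of 23 loci lower in low-ΔΨm cells (100%) were among the 673 higher in Eed null cells, or 3.42% of these. The 81 were out of 85 IAPEy-int loci tested in the Eed lines, so that nearly any tested locus of this family would be among them. The 673 were out of 1206 IAPEz-int loci tested. The rule that a locus be measurable in 2 libraries chose loci with signal in both tables, and loci share divided fragments, so that this is a description.

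**Figure D4:**
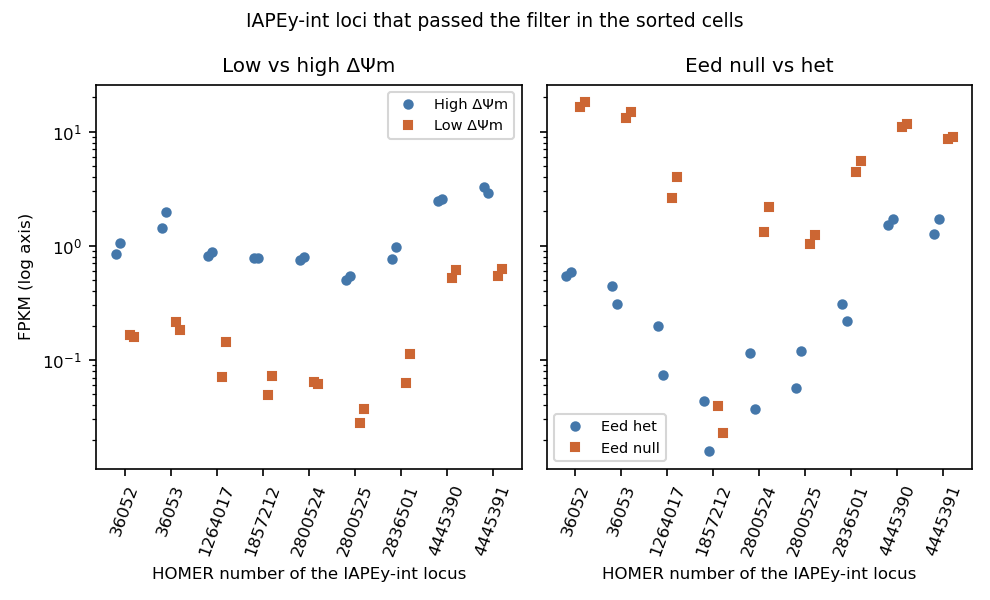
FPKM (log axis) of the 9 IAPEy-int loci that passed the filter in the sorted cells, by HOMER number, with circles for the control libraries and squares for the other group in each panel. All 9 lie lower in low-ΔΨm cells, and 8 lie higher in Eed null cells, the exception being 1857212.

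The 5 IAP loci with the most signal were picked by their mean over the reference group of each of the 6 tables, for which the 25 µM SAM libraries stood in where there was no untreated group. They were IAP1-MM_I-int 1300101 and 1300102, IAPLTR4 3288538, IAPEY_LTR 4807538 and IAPEz-int 1770830, and their values are compared only within a table. Locus 1300101 had 21.5 and 24.6 FPKM in high-ΔΨm and 23.0 and 19.7 FPKM in low-ΔΨm cells. With etomoxir it had 26.6 and 25.1 FPKM against 46.3 and 69.3 FPKM with water, a log2 fold change of -1.13, or -0.34 after scaling. With MYCi its log2 fold change was -1.14, or -0.37 after scaling. Locus 1300102 had 26.9 and 32.2 against 30.1 and 29.0 FPKM by ΔΨm. IAPLTR4 3288538 had 13.1 and 13.5 FPKM in Eed heterozygous and 7.45 and 7.80 FPKM in null cells. IAPEY_LTR 4807538, which held 23.6% of its family in the Mat2a table, had 14.4 and 11.3 FPKM with control siRNA and 4.11 and 3.95 FPKM with Mat2a siRNA. It had 6.30 and 6.0 FPKM in high-ΔΨm and 8.26 and 8.29 FPKM in low-ΔΨm cells, and 1.89 and 2.61 FPKM in Eed heterozygous and 2.67 and 4.01 FPKM in null cells. Without this locus IAPEY_LTR had a log2 fold change of 0.73 in that table (limma adjusted p = 0.0521), against 0.34 with it. IAPEz-int 1770830 had 12.3 and 13.6 FPKM with water and 9.88 and 10.6 FPKM with etomoxir, a log2 fold change of -0.34, or 0.45 after scaling. It had 1.59 and 1.70 FPKM in high-ΔΨm and 1.33 and 1.37 FPKM in low-ΔΨm cells.

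Genes known for the silencing or restriction of IAP elements, or for its reversal, were read from a list of 55, called repressor genes below. Of these, 54 were tested in 5 tables and 55 in the Eed table, with limma on log2(FPKM + 0.1) over all Ensembl genes. The group named DNA methylation below also holds Tet1 and Tet2, which act in demethylation, so that not every gene of the list is a silencer. In low-ΔΨm cells 3 were called higher and 2 lower, against 14% and 6.45% of all genes. Mphosph8, a HUSH complex protein that reads H3K9me3, rose from 5.57 and 6.75 to 11 and 10.3 FPKM (log2 fold change 0.79, limma adjusted p = 0.00289). Mettl3, the m6A methyltransferase, rose by 0.66 and Tet1, which oxidises methylcytosine, by 0.54. Dnmt3l, a cofactor of de novo DNA methylation, fell by 0.68 and Dnmt3b, a de novo methyltransferase, by 0.56. Trim28 was at 288 and 325 FPKM in high-ΔΨm and 309 and 277 FPKM in low-ΔΨm cells, and Setdb1 and Dnmt1 overlapped between the groups as well. After scaling 11 were higher and 13 lower, against 19.4% and 17%. On the deposited scale the counts changed when 1 library was left out. The shares of all genes called in those fits are not given here.

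In Eed null cells 2 genes of the list were called higher and 23 lower, against 24.2% and 12.1% of all genes, and after scaling 2 and 40, against 25.3% and 22.5%. Apart from Eed itself (log2 fold change -2.03), those with the smallest adjusted p included Smarcad1, a remodeler at H3K9me3 repeats, which fell from 27.4 and 27.9 to 12 and 11 FPKM (limma adjusted p = 0.00192). The KRAB zinc finger gene Zfp961 had -1.08. Resf1 and Atf7ip, which work with SETDB1, had -1.04 and -0.78, Atrx, which with DAXX deposits histone H3.3 at repeats, -0.89, and Dnmt3l -1.25. Setdb1 went from 29.7 and 31.3 to 18.3 and 20.6 FPKM (log2 fold change -0.65, limma adjusted p = 0.0104). Trim28 had -0.62 and was not called (limma adjusted p = 0.0507). By group, 9 of 18 genes of H3K9 methylation and KAP1 were lower, 5 of 8 of DNA methylation, 4 of 8 histone chaperones and remodelers, 3 of 7 KRAB zinc finger genes, 1 of 4 of RNA modification and 1 of 5 of Polycomb, which was Eed. Zc3hav1 and Mov10, which act on retroviral RNA, were the 2 that rose, by 1.08 and 0.86. The median log2 fold change of the list was -0.34, against 0.11 over all genes. Fewer genes of the list were called lower without Eed heterozygous replicate 1 or 2. The shares of all genes called with 1 library left out are not given here.

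With Mat2a siRNA 1 gene of the list was called higher and 33 lower, against 13.1% and 36.8% of all genes, and after scaling 5 and 22, against 23% and 19.8%. Apobec3, a cytidine deaminase that restricts retroviruses, went from 11.6 and 12.6 to 3.45 and 2.11 FPKM (log2 fold change -2.12, limma adjusted p = 1.44e-06). Mov10 had -2.05, Cbx3, an HP1 protein that binds H3K9me3, -1.85, and Uhrf1, which recruits DNMT1, -1.73. Chaf1b, a subunit of the chromatin assembly factor CAF-1, had -1.74, Hells, a remodeler needed for DNA methylation, -1.67, and Samhd1, which depletes nucleotides for reverse transcription, -1.48. The lower genes included 10 of 18 of H3K9 methylation and KAP1, 5 of 8 of DNA methylation, 5 of 8 chaperones and remodelers and 4 of 5 that restrict retroviral RNA and DNA. Dnmt3l was the gene that rose, from 1.85 and 1.95 to 7.09 and 5.24 FPKM. The calls of lower genes did not hold without control siRNA replicate 1 or 2. The shares of all genes called with 1 library left out are not given here.

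With FAOi 0 genes of the list were called higher (0 at an unadjusted p under 0.05) and 46 lower, against 13.9% and 51.3% of all genes, and after scaling 5 and 35, against 30.9% and 31.2%. Apobec3 had a log2 fold change of -2.51, Uhrf1 -2.47, Cbx3 -2.27, Hells -2.25, Chaf1b -2.22, Samhd1 -2.09, Cbx1 -2.06 and Dnmt3b -1.96. These took in 17 of 18 genes of H3K9 methylation and KAP1, 6 of 8 of DNA methylation, 7 of 8 chaperones and remodelers and 5 of 6 KRAB zinc finger genes tested. Fewer genes of the list were called lower without etomoxir replicate 1 or 2 than with both. The shares of all genes called in those fits are not given here.

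With MYCi 0 were called higher (0 unadjusted) and 50 lower, against 7.89% and 57.8%, and after scaling 4 and 34, against 25.4% and 28.4%. Dnmt3b had -1.78, Cbx1 -1.70, Tet2 -1.68, Chaf1b -1.63, Samhd1 -1.63, Cbx3 -1.62, Dnmt3l -1.58 and Sumo2, the SUMO protein used in KAP1 repression, -1.51. By group, 17 of 18 genes of H3K9 methylation and KAP1, 8 of 8 of DNA methylation, 8 of 8 chaperones and remodelers and 5 of 6 KRAB zinc finger genes were lower.

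With 50 against 25 µM SAM 0 were called in either direction (0 unadjusted), against 0.389% and 0.493% of all genes, with a median of -0.45 over the list and -0.40 over all genes. The list's median was -0.99 with Mat2a siRNA, -1.25 with FAOi and -0.99 with MYCi, against -0.63, -0.66 and -0.65 over all genes.

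**Figure D5:**
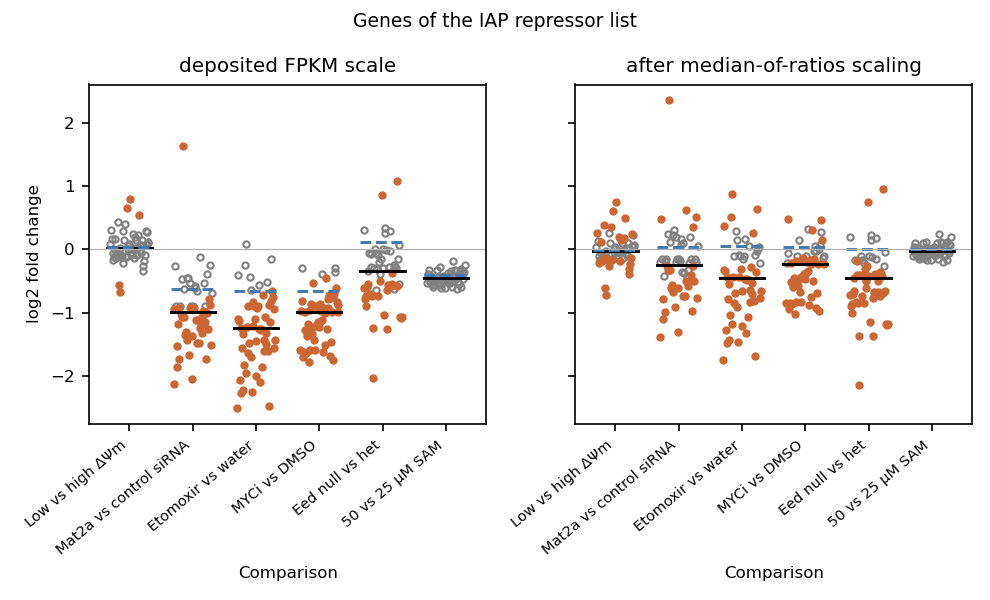
Log2 fold change of each tested gene of the list (1 point per gene, filled where the limma adjusted p was under 0.05) in the 6 comparisons, on the deposited scale (left) and after median-of-ratios scaling (right), with the median of the list as a solid line and that of all genes as a dashed line. On the deposited scale the list's median lies below that of all genes in all 6 comparisons, by least for low against high ΔΨm (0.01 against 0.04).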

How the data were processed

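Total RNA without ribosomal RNA was sequenced in 24 libraries, assigned to 12 groups from the submitters' titles. The paper describes ERCC spike-in RNA in the preparation of libraries, and spike-in values are present here only for the sorted cells. The authors aligned reads to mm10 with TopHat2 2.1.1, removed duplicates with SAMtools 1.9, and used featureCounts, unstranded and dividing multi-mapped fragments among their places, to count over Ensembl genes, NONCODE transcripts and HOMER 4.10 repeats. The deposited values are FPKM that the authors calculated with edgeR, 1 table per experiment. Their own tests (RUVSeq and DESeq2) are not part of the FPKM.

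Here limma 3.58.1 with an intensity trend (R 4.3.3) was fitted to the 4 libraries of each comparison, in place of a count test, since FPKM are not counts. Families needed 10 loci and a mean of 0.01 in 2 libraries (pseudocount 0.01), loci 0.5 FPKM in 2 libraries (pseudocount 0.1) and genes 0.1 FPKM in 2 libraries (pseudocount 0.1). Adjusted p-values are Benjamini-Hochberg over all features of a kind, with a threshold of 0.05. The scripts were tested on simulated data. Of 55385 Ensembl genes 55144 matched the GENCODE annotation of GRCm38, which gave symbols and places, and all listed genes were found.

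The members, gene lists and tests were chosen with earlier results of these data known. Named are a set of IAP families and every other called one, the 5 IAP loci highest over 12 reference libraries (the controls and the 25 µM SAM group), up to 8 called genes of the list per comparison by smallest adjusted p, Mat2a and Eed, and 4 comparison families. The rule for changed loci named none, since none was called. The IAPEy-int loci, Trim28, Setdb1, Dnmt1 and Mov10 in Eed null cells were named after their values were seen. The alternatives tried were another pseudocount, a looser filter, median-of-ratios scaling, ERCC scaling in the sorted cells, omission of the highest locus, a replicate block, omission of each library and, added after seeing the data, centring on the median family.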

Additional observations from a re-analysis of the deposited data

Results flagged for a closer look

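The effect of low ΔΨm differed from that of another condition in 33 pairs of IAP family and condition, all with the low-ΔΨm effect below. The test was the contrast of both effects in one limma fit, at an adjusted p under 0.05. Each contrast tested 18 IAP families. Among all families 7.15% differed in either direction against Mat2a siRNA, 12.1% against FAOi, 26.6% against MYCi and 5.99% against Eed null. These shares are not split by direction and give no background for the direction. Values are differences of log2 fold changes. All pairs share the libraries of the sorted cells and are not independent of one another. IAPEy-int passed the level filter only through high-ΔΨm libraries in the sorted cells and only through Mat2a siRNA libraries in that comparison. The filter thus favoured a negative difference for it against every other condition, and against Mat2a siRNA through both tables. No explanation was tested.

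Against Mat2a siRNA the difference was -2.17 for IAPEy-int, -1.16 for IAP-d-int, -1.16 for IAPEY4_I-int, -0.91 for IAPEY_LTR, -0.79 for IAPEY2_LTR, -0.70 for IAPEY3_LTR and -0.65 for IAPA_MM-int. Against FAOi it was -2.49 for IAPEy-int, -1.09 for IAPEY4_I-int, -0.85 for IAP-d-int, -0.82 for IAPEY_LTR, -0.79 for IAPA_MM-int, -0.69 for IAPEz-int, -0.63 for IAPEY2_LTR, -0.58 for IAPLTR1_Mm and -0.50 for IAPLTR1a_Mm.

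Against MYCi it was -2.18 for IAPEy-int, -0.94 for IAPEY4_I-int, -0.93 for IAP-d-int, -0.85 for IAPA_MM-int, -0.82 for IAPEY_LTR, -0.55 for IAPEY2_LTR, -0.54 for IAP1-MM_LTR, -0.50 for IAPEz-int, -0.47 for IAPLTR1_Mm and -0.45 for IAPLTR1a_Mm. Against Eed null it was -4.67 for IAPEy-int, -2.38 for IAPA_MM-int, -1.82 for IAPEY_LTR, -1.25 for IAP-d-int, -1.23 for IAPEz-int, -1.12 for IAPLTR1_Mm and -1.03 for IAPEY4_I-int.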

How the results depend on the processing

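With the replicate block, the called IAP families numbered 0 lower in low-ΔΨm cells, 0 higher with Mat2a siRNA, 2 higher with FAOi, 0 higher and 0 lower with MYCi and 1 higher (IAPEy-int) in Eed null cells. Repressor genes then numbered 1 lower in low-ΔΨm cells, 18 lower with Mat2a siRNA, 4 higher in Eed null cells and 48 lower with 50 µM SAM. The shares of all families and genes called in these fits are not given here. The counts thus show only how far calls depend on the block. The labels do not say that numbers pair libraries, and deviations of same-numbered libraries correlated by -0.09 to 0.28 over families. The highest was with SAM, which had 0.30 over genes.

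Median-of-ratios scaling gave 17 families higher with Mat2a siRNA, 22 with FAOi and 24 with MYCi (0 lower), and 1 lower in Eed null cells. Repressor genes were then 11 higher and 13 lower in low-ΔΨm cells and 40 lower in Eed null cells. They were 5 higher with Mat2a siRNA, 5 higher with FAOi and 4 higher with MYCi. The low-ΔΨm effect lay below that of Mat2a siRNA in 13 of 18 IAP families. It lay below that of FAOi in 15, of MYCi in 18 and of Eed null in 7. In the same order, 644 of 1385, 1008 of 1386, 1108 of 1385 and 48 of 1386 of all families differed in either direction. Log2 fold changes that changed sign were those of IAP1-MM_I-int (0.38 with Mat2a siRNA, 0.32 with FAOi, 0.39 with MYCi), IAPA_MM-int (0.67) and IAPLTR1_Mm (0.53) with Mat2a siRNA, and IAPEz-int (0.36) and IAPEy-int (0.28) with SAM.

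Centring on the median family gave 0 IAP families higher with Mat2a siRNA, 0 with FAOi and 7 with MYCi, where 149 of all 1444 families were higher. It turned IAPEz-int to -0.040 with Mat2a siRNA, IAPLTR2b to -0.010 with FAOi, and IAPLTR2a to -0.022 and IAPEY3C_LTR to -0.023 with MYCi. Without the filter 0 families were higher with Mat2a siRNA and 3 with FAOi, and without the highest locus 3 with FAOi. Omission of that locus turned IAPLTR2a to -0.043 in low-ΔΨm cells, IAPA_MM-int to 0.47 with Mat2a siRNA and IAP1-MM_I-int to 0.010 with MYCi. With a pseudocount of 0.1 in place of 0.01 the log2 fold change of IAPEy-int was -0.36 in low-ΔΨm cells, 0.13 with Mat2a siRNA, 0.38 with FAOi, 0.21 with MYCi and 1.77 in Eed null cells, each on the same side of the threshold as before. ERCC scaling turned IAP1-MM_I-int to 0.033 and IAPEY3_LTR to 0.016 in low-ΔΨm cells. The causes were not tested.

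With 1 library left out, families called higher numbered 0 to 0 in Eed null cells, with MYCi and with Mat2a siRNA and 0 to 7 with FAOi, and families lower 0 to 0 with MYCi and in low-ΔΨm cells and 0 to 2 with FAOi. Loci higher numbered 0 to 7 with Mat2a siRNA and 0 to 8 with FAOi, which came from fits in which the lone treated library is assumed to vary like the others. Repressor genes numbered 1 to 4 higher and 0 to 2 lower in low-ΔΨm cells, 0 to 1 higher and 0 to 53 lower with Mat2a siRNA, 0 to 1 higher and 9 to 53 lower with FAOi, and 8 to 24 lower in Eed null cells. The shares of all features called in these fits are not given here, so that the counts show only how far calls depend on single libraries. Log2 fold changes that changed sign ranged, in low-ΔΨm cells, from -0.090 to 0.069 for IAP1-MM_I-int, -0.16 to 0.035 for IAP1-MM_LTR, -0.063 to 0.037 for IAPEY3_LTR and -0.10 to 7.34e-05 for IAPLTR2_Mm. They ranged from -0.13 to 0.045 for IAPA_MM-int and -0.046 to 0.15 for IAPEz-int with Mat2a siRNA, from -0.047 to 0.25 for IAPA_MM-int with FAOi, and from -0.15 to 0.071 for IAPEy-int and -0.13 to 0.045 for IAPEz-int with SAM.

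With 2 libraries a group and FPKM divided among copies, small differences of single loci were not detectable. IAPEy-int kept its sign in the sorted cells, with FAOi, with MYCi, with Mat2a siRNA and in the Eed lines under every alternative run.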

Other observations

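4 IAPEz-int loci were higher in low-ΔΨm than in high-ΔΨm cells at an unadjusted p under 0.05, and none was called after adjustment by limma. Among them locus 2616062, singled out after the values were seen, is listed at 0 in both high-ΔΨm libraries and had 4.24 and 3.26 FPKM in low-ΔΨm cells, with a limma adjusted p of 0.203 over all loci. It had 4.04 and 5.13 FPKM with control siRNA and 25.6 and 16.3 FPKM with Mat2a siRNA (limma adjusted p = 0.108), and 7.56 and 7.45 FPKM in Eed heterozygous and 36.3 and 36.1 FPKM in null cells (limma adjusted p = 0.0951). With water it had 2.41 and 0.403 FPKM and with etomoxir 0.463 and 0.693 FPKM, with DMSO 1.17 and 1.69 and with MYCi 1.31 and 0.715 FPKM, and in these 2 tables the groups overlapped. MERVL-int had log2 fold changes of 3.07, 2.28 and 1.77 in the first 3 of these comparisons and of 0.03 and 0.05 with FAOi and MYCi, which were not called. These values are on the deposited scale, and scaling moved the median gene by 0.72 with FAOi and 0.68 with MYCi. By RT-qPCR, another measure, the paper reported significantly higher MERVL with both inhibitors. Whether the fragments come from the locus or from a longer transcript through it was not tested.

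IAPLTR2a2_Mm locus 1019497 had 0.00922 and 0.0302 FPKM in high-ΔΨm and 0.648 and 0.607 FPKM in low-ΔΨm cells, and 0.441 and 0.334 FPKM with control siRNA against 1.5 and 1.49 FPKM with Mat2a siRNA. On the deposited scale it went the other way with the inhibitors. With etomoxir it had 0.0335 and 0.0676 FPKM, against 0.164 and 0.214 FPKM with water. With MYCi it had 0.133 and 0.195 FPKM, against 0.313 and 0.240 FPKM in DMSO. In both comparisons it was below the filter for loci and was not tested in the main fit. Scaling moved the median gene by 0.72 with FAOi and 0.68 with MYCi. In Eed heterozygous cells it had 0.735 and 1.46 FPKM and in null cells 2.01 and 1.55 FPKM. Neither of the first pair of differences was called over all loci (limma adjusted p = 0.410 and 0.146).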
